A study of Mus musculus with 35 samples.

Results

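The genes described here are 9 enzymes and regulators of fatty acid oxidation, measured in the colon of 35 mice. They were taken by symbol from a list (Cpt1a, Cpt2, Acadm, Acadl, Acadvl, Hadha, Hadhb, Acaa2 and Pdk4), and all 9 were present among the 19908 genes named by the array. Mitochondria burn fatty acids by beta-oxidation. Carnitine palmitoyltransferases carry long-chain acyl groups across the mitochondrial membranes, and repeated rounds of dehydrogenation, hydration, dehydrogenation and thiolysis then release acetyl-CoA. Colonocytes are known for using butyrate, a short-chain fatty acid made by gut bacteria, as a main fuel. The list had been named for ketogenesis too, but none of the 9 genes acts only in that pathway.

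The study addressed how the Reg3a transgene, and the gut microbes of transgenic donors, altered the colon in colitis. All mice were C57BL/6N, and each of 7 groups held 5 mice with 1 array each. Of the conventional mice, some were wild-type and some carried the Reg3a transgene, and each kind was either untreated (plain drinking water) or given 3% dextran sodium sulfate (DSS), an agent that injures the colon epithelium, for 5 days. Axenic (germ-free) mice all received DSS. They had been given the intestinal microbes of wild-type donors or of transgenic donors 3 weeks earlier, or were controls whose label places the DSS before any transfer. All colons were collected at day 12. The sources used here do not give the promoter of the transgene, the age and sex of the mice, the number of donors or the sharing of cages. A label field also describes the conventional mice as recipients of microbes, which the titles and protocols do not, and the titles were followed. If mice shared a cage or a donor pool, p-values measured only the spread between these arrays.

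Values are log2 signal, so a difference of 1 is a 2-fold change. The sections held muscle as well as epithelium, although the series is titled for epithelial cells: over the 35 arrays the muscle actin Acta2 averaged 12.75 and the epithelial adhesion gene Epcam 11.93. Reg3a itself lay between 4.89 and 5.24 in the conventional transgenic mice and between 5.07 and 5.58 in the conventional wild-type mice, so its probe set gave no check of the genotype labels. The SD over all probe sets of an array ran from 1.64 to 2.03, and was 1.64 to 1.78 in the axenic controls against 1.90 to 2.03 in the axenic mice with wild-type flora. Genes of the exocrine pancreas, which neighbours the colon, had a mean log2 signal of 6.94 to 11.45 in axenic mice with wild-type flora and 6.53 to 8.57 in axenic controls, and of 6.76 to 11.98 in untreated and 6.30 to 8.86 in DSS wild-type mice. Their part in the results was not tested.

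Promoter sequence was available for 8 of the 9 genes, taken from RefSeq on the GRCm38.p6 build. Acaa2 was not in the table. The sequences shown are the 250 bases before the annotated start, 5′ to 3′ on the strand of the gene. Capitals mark matches on either strand to the letters searched: AGGTCA (the core of many nuclear receptor sites), a direct repeat of AGGTCA spaced by any 1 base (the site of PPAR with RXR), TCAAGGTCA (the estrogen-related receptor site), GGGCGG (a GC box), CCAAT and TATAAA. A match is a description of letters and shows no binding.

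Hadhb (chr5:30155003-30155252, plus strand) is shown because its start lies 273 bases from that of Hadha, in the opposite direction, so that the promoter windows of the pair overlap by 228 bases. Pdk4 (chr6:5496279-5496528, minus strand) is shown as the gene of the 9 with the largest change under DSS. Cpt1a (chr19:3323051-3323300, plus strand) and Acadvl (chr11:70015429-70015678, minus strand) are shown as promoters that held the AGGTCA letters.

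Hadhb: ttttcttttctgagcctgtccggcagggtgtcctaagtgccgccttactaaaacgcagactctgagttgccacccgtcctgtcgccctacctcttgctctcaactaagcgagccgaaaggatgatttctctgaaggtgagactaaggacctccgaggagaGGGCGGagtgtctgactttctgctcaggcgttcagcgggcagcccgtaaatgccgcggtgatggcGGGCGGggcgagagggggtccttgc

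Pdk4: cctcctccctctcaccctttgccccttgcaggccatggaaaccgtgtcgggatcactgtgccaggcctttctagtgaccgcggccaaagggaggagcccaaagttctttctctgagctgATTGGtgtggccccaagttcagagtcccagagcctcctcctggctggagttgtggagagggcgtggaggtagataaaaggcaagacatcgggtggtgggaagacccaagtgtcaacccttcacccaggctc

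Cpt1a: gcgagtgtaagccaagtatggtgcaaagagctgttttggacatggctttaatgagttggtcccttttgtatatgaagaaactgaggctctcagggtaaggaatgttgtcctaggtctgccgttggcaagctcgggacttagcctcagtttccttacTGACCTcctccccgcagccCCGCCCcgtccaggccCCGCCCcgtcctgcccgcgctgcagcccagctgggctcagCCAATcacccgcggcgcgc

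Acadvl: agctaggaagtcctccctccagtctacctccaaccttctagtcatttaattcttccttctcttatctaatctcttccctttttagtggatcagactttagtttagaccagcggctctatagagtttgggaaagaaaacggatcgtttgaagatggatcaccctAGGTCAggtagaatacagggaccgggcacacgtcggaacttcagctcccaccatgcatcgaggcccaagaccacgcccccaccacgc

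AGGTCA was found in the windows (250 bases before to 50 after the start) of 3 of the 8 genes, Cpt1a, Acadm and Acadvl, and in 16.3% of all 32851 promoters. The spaced repeat was in none of the 8 and in 0.0396% of all promoters, and TCAAGGTCA was in none and in 0.423%. The GC box was in 5 of the 8 and in 35.7% of all. The only GC box of Hadha is a stretch that also counts for Hadhb, since their windows overlap. CCAAT was in 2, Cpt1a and Pdk4, and in 37.4% of all, and TATAAA was in none and in 13.6%. The spaced repeat and TCAAGGTCA each contain AGGTCA.

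The levels of the 9 genes by mouse and group are described first. Pdk4, the kinase that switches off pyruvate dehydrogenase and so spares glucose when fat is burned, varied most between mice, over 3.39. In untreated wild-type mice its log2 signal was 6.82, 7.61, 8.22, 7.67 and 9.40, and in untreated transgenic mice 7.24, 7.35, 7.89, 8.46 and 7.80. After DSS it was 6.70, 6.57, 6.44, 6.20 and 6.11 in wild-type mice and 6.18, 6.15, 6.61, 6.23 and 6.20 in transgenic mice. Every mouse with DSS in these conventional groups lay below every untreated mouse of either genotype. The axenic groups, all given DSS, lay near them: 6.25 to 6.92 with wild-type flora, 6.01 to 6.78 with transgenic flora and 6.15 to 7.38 in controls. Their mice did overlap the untreated ones. Control mouse CT677 (7.38) lay above untreated mice at 6.82, 7.24 and 7.35, and wild-type-flora mouse WT597 (6.92) above the mouse at 6.82. The untreated groups were thus the highest for Pdk4 and differed from each other by less than their spread (7.95 ± 0.95 and 7.75 ± 0.49, SD, n = 5 each), and the next group, the axenic controls, was at 6.68 ± 0.45.

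Acaa2, the thiolase that cuts acetyl-CoA from the shortened chain, showed the same 2 levels among conventional mice. Its log2 signal was 10.52, 10.89, 10.55, 11.15 and 10.75 in untreated wild-type mice and 10.70, 10.52, 10.74, 10.88 and 10.89 in untreated transgenic mice. With DSS it was 10.19, 10.11, 8.64, 9.34 and 9.92 in wild-type mice and 10.16, 10.14, 10.07, 9.82 and 9.94 in transgenic mice. No mouse with DSS reached the lowest untreated value. Axenic mice held 9.27 to 10.15 with wild-type flora, 8.85 to 9.58 with transgenic flora and 8.41 to 9.27 as controls. Acaa2 had the widest span of group means, 1.91, from untreated wild-type mice (10.77 ± 0.26) to axenic controls (8.86 ± 0.39).

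Cpt1a, the outer-membrane transferase that limits entry of long-chain fatty acids, ranked by mean from untreated transgenic (11.01 ± 0.28), untreated wild-type (10.89 ± 0.33) and DSS transgenic mice (10.76 ± 0.14) to axenic mice with wild-type flora (10.36 ± 0.21), with transgenic flora (10.15 ± 0.24), DSS wild-type mice (10.09 ± 0.58) and axenic controls (9.80 ± 0.47). DSS transgenic mice, 10.58 to 10.98, stood clear of the next group, 10 to 10.53. Cpt2, its partner on the inner membrane, moved least, with means between 9.60 ± 0.20 (axenic, wild-type flora) and 8.96 ± 0.30 (axenic controls), and no neighbouring groups in that order differed by more than the larger SD.

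The acyl-CoA dehydrogenases carry out the opening step of each round and differ in chain length. Acadvl, for very long chains, was highest in untreated wild-type mice (8.28 ± 0.28), and its group means formed an upper set, down to DSS transgenic mice at 8.06 ± 0.25, and a lower set of axenic controls (7.60 ± 0.13) and axenic mice with transgenic flora (7.58 ± 0.24). Acadm, for medium chains, was highest in untreated wild-type mice (10.49 ± 0.23) and lowest in axenic controls (9.38 ± 0.69), and was nearly even among DSS transgenic mice, 10.20 to 10.32. Acadl, for long chains, had another order. It was lowest in untreated wild-type mice (9.70 ± 0.28) and highest in axenic mice with wild-type flora (10.35 ± 0.25). No neighbouring groups in its order differed by more than the larger SD.

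Hadha and Hadhb encode the alpha and beta subunits of the trifunctional protein, which runs the remaining steps on long chains. Hadha ranged in group mean from 10.99 ± 0.24 (untreated transgenic) to 9.92 ± 0.34 (axenic controls), and Hadhb from 9.80 ± 0.36 to 8.64 ± 0.64 in the same groups. Hadhb had 2 probe sets with the same transcript accessions, and the one with the higher mean signal was used; the other gave changes of the same sign in all 8 comparisons, between -0.61 and 0.81. Over the 9 genes there were 54 pairs of neighbouring groups. In 5 the gap exceeded the larger SD. In 2 the mice did not overlap: Cpt1a in DSS transgenic mice against axenic mice with wild-type flora, and Acaa2 in untreated against DSS transgenic mice. Neither count was made over all genes, so no background share stands beside them.

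**Figure D1:**
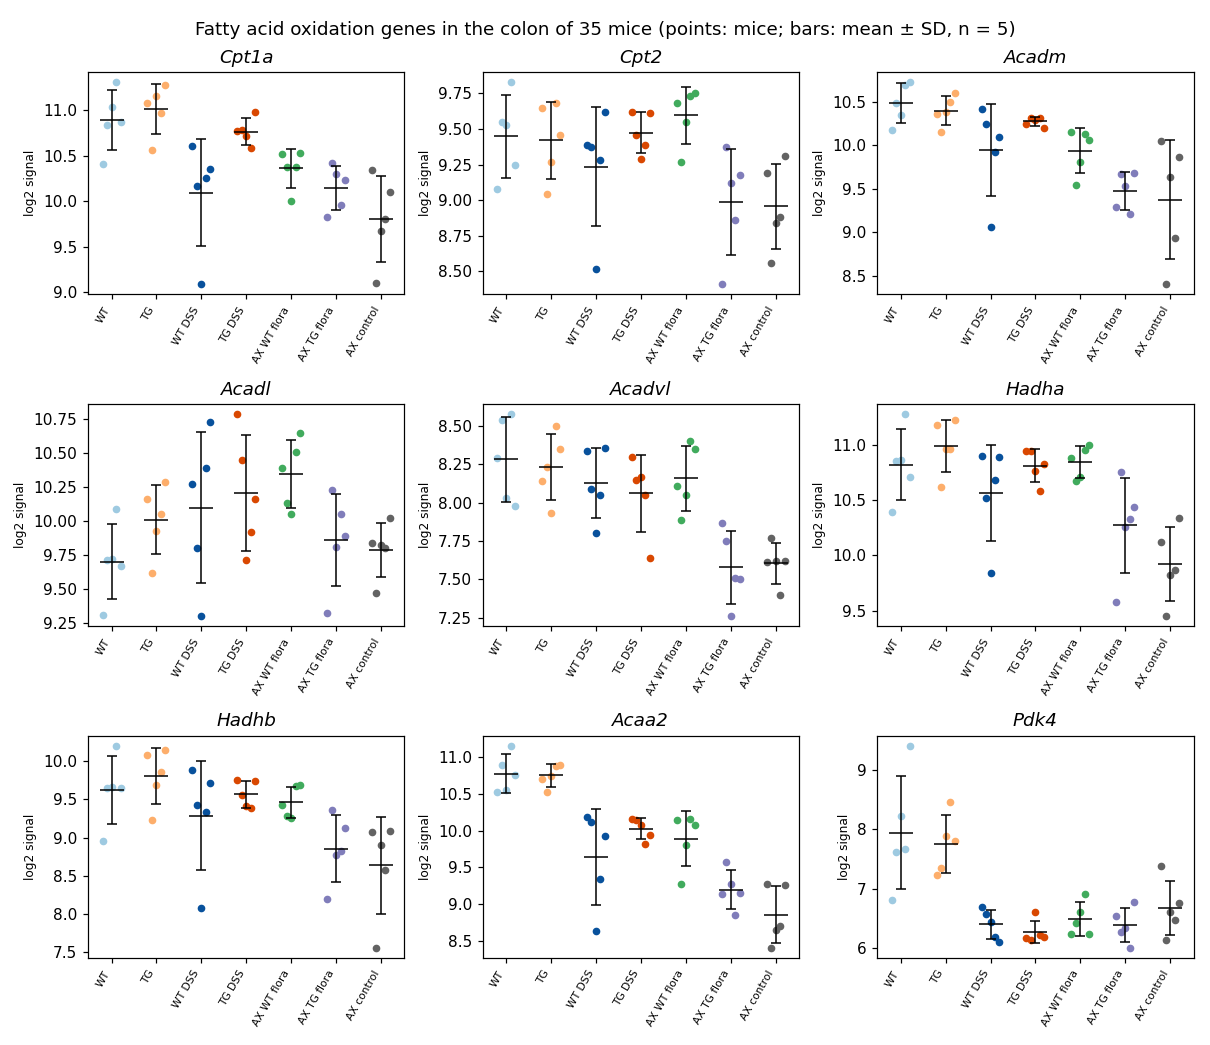
Log2 signal of the 9 genes (vertical axes, one panel per gene, each with its own scale) in each mouse (points) of the 7 groups (horizontal axes), with the mean and SD of 5 mice as bars; WT is wild-type, TG transgenic and AX axenic. Pdk4 and Acaa2 are low in all DSS-treated conventional mice, at most 6.70 and 10.19, and most other genes are lowest in axenic controls.

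The mice within a group moved together across most of the genes. Wild-type mouse 9 was the lowest of its group for 8 of the 9 genes, transgenic mouse 31 for 7, DSS wild-type mouse 55 for 8 and axenic control mouse CT517 for 8. Each of these 4 mice also had the smallest within-array SD of its group, at 1.76, 1.73, 1.71 and 1.64, as had axenic mouse TG922 (1.66), the lowest for 5 genes. The remaining groups did not share this: axenic mouse WT793 was lowest for 5 genes with an SD of 1.98, and no DSS transgenic mouse was lowest for more than 4. DSS wild-type mouse 55 and axenic control mouse CT517 also had the lowest epithelial marker means of their groups, 10.78 against 11.52 to 11.70 and 10.54 against 10.72 to 11.16. So had TG922, at 10.98 against 11.15 to 11.50, and WT793, at 11.40 against 11.56 to 11.80, while mice 9 and 31 had not. The part of these measures in the levels was not tested.

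Correlations describe the same pattern across the 35 arrays, which share 7 groups and the array scale, and are given without a test. Among the 8 genes other than Pdk4 the median r was 0.76 (0.23 to 0.95), and after subtracting group means 0.77 (0.13 to 0.93). Hadha and Hadhb, whose promoter windows overlap, had the highest r with each other, 0.95, and 0.93 within groups. Pdk4 had a median r of 0.35 (-0.26 to 0.62) to the other 8, and Acadl had nearly the same over the 35 arrays, 0.36 (-0.26 to 0.71). Within groups the medians were 0.18 for Pdk4, 0.26 for Acadvl and 0.64 for Acadl. Within-array SD had r of 0.81 with Acadl, 0.78 with Cpt2 and with Hadha, 0.72 with Hadhb and -0.03 with Pdk4. The mean of 12 epithelial markers had r of 0.85 with Hadha, 0.83 with Cpt2 and 0.05 with Pdk4. That of 8 mature colonocyte markers had r from 0.38 (Acadl) to 0.90 (Acadm), with 0.41 for Pdk4. The mean of 8 posterior Hox genes, which mark distal position along the gut, had r of 0.66 with Pdk4, and that of 8 leukocyte genes -0.62. Within groups these were 0.38 and -0.19. Pdk4 was also the member with the lowest mean signal over the 35 arrays, 6.85, near the array medians (6.65 to 6.95). It stood at percentile 49.9 of all genes by mean signal, against 73.6 to 97.2 for the other members. The part of this low signal in its r values and in its changes between groups was not tested.

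The genes most like each member over the 35 arrays were found among all genes by r. Those most like Cpt1a began with Hadh (0.95), the short-chain hydroxyacyl-CoA dehydrogenase. Those of Cpt2 were led by Etfdh (0.94), which passes electrons from the dehydrogenases to ubiquinone, and Acat1 (0.92), a thiolase. Acaa2 was followed by St6galnac2 (0.94) and by Ech1 (0.94), an enoyl-CoA isomerase. Hadhb was closest to Suclg2 (0.96), a succinyl-CoA ligase subunit, Acadm to Slc9a2 and Prkcz (0.97 each), Acadl to Uhmk1 (0.92) and Acadvl to Surf1 and Micos13 (0.86 each). The 5 most like Pdk4 were Ces1d (0.90), a carboxylesterase, Calcoco1 (0.88), Dpyd (0.87), Cobl (0.85) and Bbs2 (0.84).

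**Figure D2:**
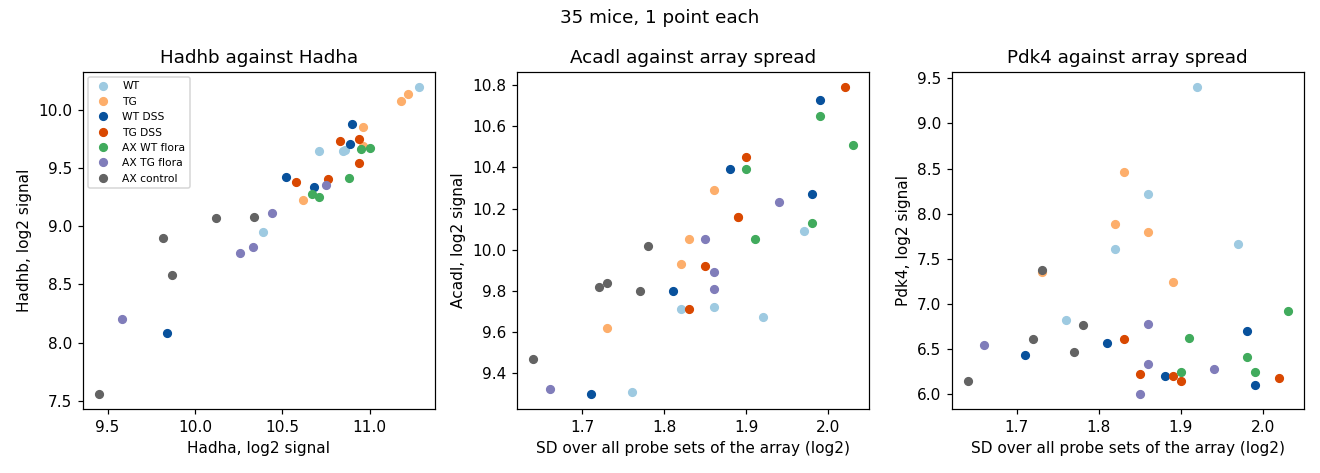
Left, log2 signal of Hadhb against Hadha; middle and right, log2 signal of Acadl and of Pdk4 against the SD over all probe sets of the array; each point is 1 of 35 mice, coloured by group. Hadha and Hadhb are high in the same mice (r 0.95), Acadl is higher where array SD is larger (r 0.81) and Pdk4 is not (r -0.03).

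Pdk4 and Acaa2 were lower with DSS in conventional mice of both genotypes, and no other of the 9 genes passed the test. In wild-type mice Pdk4 was 2.91-fold lower (log2 change -1.54, SE 0.38, adjusted p = 0.0414, limma, n = 5 per group) and Acaa2 was 2.20-fold lower (-1.13, SE 0.27, adjusted p = 0.0383, limma). Of the 19908 genes, 5.13% were called in this comparison, 2.13% as lower, and 6.16% had groups that did not overlap. The 2 called genes were also the only members whose groups did not overlap. The other 7 were not called. Cpt1a had a change of -0.80 (SE 0.26, adjusted p = 0.125, limma), with 4 of the 5 DSS mice between 10.17 and 10.61 and mouse 55 at 9.09, against 10.41 to 11.31 untreated. Acadm changed by -0.54 (SE 0.23), Hadhb by -0.34, Hadha by -0.25, Cpt2 by -0.21 and Acadvl by -0.16, and Acadl alone had a positive value, 0.40 (SE 0.25). The median change was -0.34 over the 9 genes and -0.02 over all genes. In these sections, fewer cells of a type and less RNA per cell cannot be told apart.

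The wild-type DSS mice also differed in other measures. Posterior Hox genes averaged 7.56 without and 6.43 with DSS, with 5 of 8 called lower, Hoxb13 by -3.07 among them. Leukocyte genes averaged 6.42 and 7.99, with 5 of 8 called higher. The epithelial mean was 11.43 in both groups, but markers of its cell types differed. Mature colonocyte markers averaged 10.96 and 10.59, with 2 of 8 called lower (the chloride exchanger Slc26a3 by -1.33 and the water channel Aqp8 by -2.13). Of the 8, 2 had positive changes, among them Slc51b, with means of 8.28 without and 9.60 with DSS. Goblet cell markers averaged 12.86 and 13.32, with 3 of 6 called higher. The part of these in the changes of Pdk4 and Acaa2 was not tested. With the Hox mean as a covariate, whose values did not overlap between the groups (6.82 to 7.87 and 6.27 to 6.64), 9 of all 19908 genes were called in place of 1022, and neither member was among them: the change of Pdk4 was -0.17 (adjusted p = 0.862, limma) and that of Acaa2 -0.79 (adjusted p = 0.338, limma). With the smooth muscle mean as a covariate 359 genes were called, and the values were -1.24 (adjusted p = 0.19, limma) and -0.87 (adjusted p = 0.169, limma). When each of the 10 mice was left out in turn, Pdk4 was called in 2 of 10 fits, those without untreated mouse 9 or 10 (changes -1.82 to -1.18 over all 10), and Acaa2 in 3 of 10, those without DSS mouse 65, 56 or 55 (-1.27 to -0.89).

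In transgenic mice Pdk4 was 2.78-fold lower with DSS (log2 change -1.47, SE 0.20, adjusted p = 0.0072, limma) and Acaa2 1.65-fold lower (-0.72, SE 0.10, adjusted p = 0.00701, limma), again with no overlap. Of all genes 4.55% were called, 3.46% as higher and 1.08% as lower, and 8.7% did not overlap. The posterior Hox mean was 6.97 without and 6.86 with DSS, with 0 of 8 called and 1 of 8 at an unadjusted p under 0.05 (limma). With it as a covariate the changes stayed at -1.47 (adjusted p = 0.0087, limma) and -0.72 (adjusted p = 0.00869, limma), and both genes were called in all 10 fits that left out a mouse. In 1 model of all 35 arrays Pdk4 was called (adjusted p = 0.00518, limma) and Acaa2 was not (-0.72, adjusted p = 0.0626, limma). Leukocyte genes averaged 6.47 and 7.36, with 1 of 8 called. Mature colonocyte markers averaged 11 and 10.77, with 1 of 8 called lower, the carbonic anhydrase Car4 (-0.35), and goblet cell markers 13.05 and 13.42, with 2 of 6 called higher. With the epithelial marker mean as a covariate, an alternative chosen after seeing the data, none of the 19908 genes was called, and the values were -1.39 (adjusted p = 0.224, limma) for Pdk4 and -0.83 (adjusted p = 0.102, limma) for Acaa2. The other 7 genes lay between -0.24 (Cpt1a) and 0.19 (Acadl) and were not called. The median change was -0.18 over the 9 genes and -0.01 over all genes.

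The DSS effects of the genotypes were compared in 1 model. None of the 9 genes was called by limma, 0 of 9 had an unadjusted p under 0.05, and 0.156% of all genes were called. The transgenic minus wild-type difference was 0.07 for Pdk4 (SE 0.46, 95% interval -0.90 to 1.03), 0.42 for Acaa2 (SE 0.31, -0.22 to 1.05) and 0.56 for Cpt1a (SE 0.31, -0.09 to 1.20). All 3 intervals include a 2-fold change, so likeness of the genotypes was not shown either.

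Genotype itself gave no call among the 9 genes. Without DSS the transgenic minus wild-type values ran from -0.19 for Pdk4 to 0.31 for Acadl (SE 0.15, adjusted p = 0.987, limma). Of the members 0 of 9 had an unadjusted p under 0.05, no groups were apart, and 0.0753% of all genes were called (0.0251% as higher and 0.0502% as lower) and 1.12% did not overlap. With DSS, 7 of 9 values were positive. The largest was Cpt1a at 0.67 (SE 0.24, adjusted p = 0.732, limma), and it was the 1 member with an unadjusted p under 0.05. Its 5 transgenic mice lay between 10.58 and 10.98 and its wild-type mice between 9.09 and 10.61. Among all genes 0.00502% were called, 1030 of 19908 had an unadjusted p under 0.05 (limma) and 1.57% did not overlap. The Cpt1a call appeared in 1 alternative, array weights (0.51, adjusted p = 0.0275, limma), in which 339 genes were called. The members' median was 0.24, against -0.01 over all genes. Epithelial markers had a median change of 0.25 (11 of 12 positive, means 11.67 and 11.43) and smooth muscle markers of 0.25, with 0 called in either list by limma and 1 of 12 and 4 of 10 at an unadjusted p under 0.05. The posterior Hox means did not overlap, at 6.76 to 6.93 in transgenic and 6.27 to 6.64 in wild-type mice. Leukocyte genes averaged 7.36 and 7.99. Each of these lists had 0 of 8 called by limma and 2 of 8 at an unadjusted p under 0.05. The part of all these markers in the members' values was not tested.

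**Figure D3:**
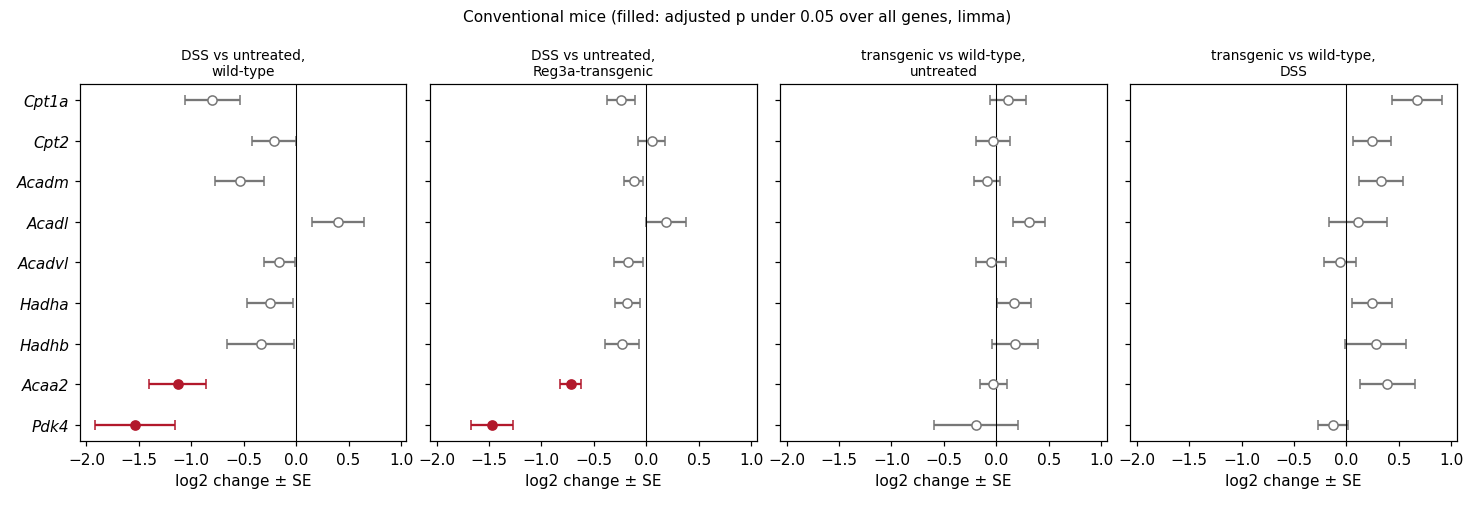
Log2 change with its SE (horizontal axes, limma, 5 mice per group) of each of the 9 genes in 4 comparisons of conventional mice; filled points had an adjusted p under 0.05 over all genes. Pdk4 and Acaa2 are the filled points, in both DSS comparisons, and none is filled in the genotype comparisons.

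Related genes under DSS were taken from 8 lists covering the rest of the pathway, with 98 of 107 genes measured. Their counts stand beside the 5.13% of all genes called in wild-type (3% higher, 2.13% lower) and 4.55% in transgenic mice (3.46% higher, 1.08% lower). An unadjusted p under 0.05 (limma) was reached by 3301 of the 19908 genes in wild-type and 5208 in transgenic mice. Among the regulators, Ppargc1a, a coactivator of mitochondrial genes, was lower in wild-type mice (-1.74, SE 0.32, adjusted p = 0.0124, limma), the 1 called of 17. Pdk2, a sister kinase of Pdk4, was the 1 called of 11 genes of the pyruvate dehydrogenase complex, at -1.56 in wild-type mice (adjusted p = 0.0102, limma) and -0.54 in transgenic mice (adjusted p = 0.0349, limma). Of 10 genes listed for butyrate uptake and activation 2 were called lower in wild-type mice, Acsm3 (-2.27), a medium-chain acyl-CoA synthetase, and Acss2 (-1.51), the cytosolic acetyl-CoA synthetase. The butyrate carrier Slc5a8 had -0.89 and missed the threshold (adjusted p = 0.122, limma). In transgenic mice 0 of 10 were called and 4 had an unadjusted p under 0.05.

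The other 17 genes of mitochondrial beta-oxidation had no call in either genotype by limma, with 6 and 2 at an unadjusted p under 0.05 in wild-type and transgenic mice. Hadh came nearest, at -0.82 (adjusted p = 0.0638) and -0.38 (adjusted p = 0.053). Of 14 further target genes of PPAR receptors, Acot2 (-0.64) and Txnip (-0.71) were lower in wild-type mice and Vnn1 (-0.50) in transgenic mice. Of 10 uptake and activation genes in wild-type mice, the transporter Slc27a1 fell by 0.60 and the acyl-CoA synthetase Acsl4 rose by 1.36, and 1 of 6 ketone body genes, the carrier Slc16a6, rose by 0.55. These 2 lists had 0 calls in transgenic mice, with 2 genes each at an unadjusted p under 0.05. The 13 peroxisomal genes had 0 calls in both genotypes, with 2 and 2 at that p. All of these used limma, and the Hox and leukocyte values above apply to the wild-type mice here too.

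Among axenic mice given DSS, 7 of the 9 genes were higher with wild-type flora than in controls in the deposited values. Hadha rose by 0.92 (SE 0.15, adjusted p = 0.000752, limma), from 10.12, 9.45, 9.82, 9.87 and 10.34 in controls to 10.88, 10.67, 10.71, 10.95 and 11. Acaa2 rose by 1.03 (SE 0.21, adjusted p = 0.00208, limma) and Hadhb by 0.82 (adjusted p = 0.0158, limma). Cpt2 (0.64), Cpt1a (0.56), Acadl (0.55) and Acadvl (0.55) were also called, while Acadm at 0.56 (SE 0.28, adjusted p = 0.0963, limma) and Pdk4 at -0.19 (SE 0.21, adjusted p = 0.44, limma) were not. Leaving out 1 mouse kept all of these calls except Cpt1a, which was lost without control mouse CT465 or wild-type-flora mouse WT880, WT793, WT597 or WT098 (adjusted p 0.0106 to 0.0658 over 10 fits, limma). Acadm was called without control mouse CT677 (0.73, adjusted p = 0.0378, limma). Groups did not overlap for Acadl, Acadvl, Hadha and Hadhb. The background was high: 67.3% of all genes were called, 32.1% as higher and 35.2% as lower, and 44.7% did not overlap.

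The array scale moved with this comparison, since within-array SD did not overlap between the 2 groups. When the 10 arrays were quantile normalized again, 0 of the 9 genes were called among 6637 of all genes, and Hadha stood at 0.26 (adjusted p = 0.0574, limma), Acaa2 at 0.37 and Cpt1a at -0.12. With within-array SD as a covariate 0 of the 9 and 1 of all genes were called, and Hadha stood at 0.20, Acaa2 at 0.48 and Hadhb at -0.52. The epithelial marker mean, 11.64 against 10.89 with 9 of 12 markers called higher, moved the same way, and with it as a covariate Hadha was at 0.09 and 1 member was called, Acadm as lower at -1.16. Other markers moved too. Leukocyte genes averaged 8.68 against 7.21 (6 of 8 called higher) and goblet cell genes 13.17 against 12.46 (3 of 6 higher). Adipocyte genes averaged 6.77 against 7.29 (4 of 6 lower) and striated muscle genes 6.87 against 7.27 (5 of 6 lower). Mature colonocyte genes averaged 10.76 against 9.85 (3 of 8 higher, 1 lower) and exocrine pancreas genes 10.26 against 7.14 (6 of 6 higher). Posterior Hox genes averaged 6.55 against 6.87 (1 of 8 higher, 4 lower). Flora, array scale and the makeup of the sections cannot be told apart here.

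With transgenic flora against the same controls, 0 of 9 genes were called by limma and 0 had an unadjusted p under 0.05. The values ran from -0.28 for Pdk4 to 0.35 for Hadha (SE 0.22), with 0.337% of all genes called, 0.01% as lower, and 2.75% not overlapping. Without transgenic-flora mouse TG922, whose within-array SD was 1.66, Hadha was called at 0.52 (adjusted p = 0.0465, limma), as were 5307 of all 19908 genes in that fit. With the smooth muscle mean as a covariate 6 members were called higher, among 7575 of all genes called. That mean was 9.91 with transgenic flora and 10.46 in controls. This comparison and the preceding one share their controls.

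Transgenic against wild-type flora gave negative values for all 9 genes, with 0 called by limma. Of the members 7 of 9 had an unadjusted p under 0.05, as had 6856 of the 19908 genes, none of which was called (0% of genes). Acaa2 had -0.69 (SE 0.18, adjusted p = 0.0697, limma), Cpt2 -0.61, Hadhb -0.60, Hadha -0.57, Acadl -0.48, Acadm -0.46, Cpt1a -0.21 and Pdk4 -0.10. Acadvl had -0.58 (SE 0.14, adjusted p = 0.0695, limma) and was the 1 member without overlap, at 7.87, 7.75, 7.26, 7.51 and 7.50 against 8.11, 7.89, 8.05, 8.40 and 8.35, while 7.43% of all genes did not overlap. The members' median was -0.57, against -0.00 over all genes.

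Calls appeared when a single mouse was left out. Without transgenic-flora mouse TG749, 7 members were called lower (all but Cpt1a and Pdk4, adjusted p 0.0264 to 0.0397, limma), along with 4700 of all genes, and without wild-type-flora mouse WT793, 1 was, Acaa2 at -0.85, in a fit that called 149 genes. The epithelial mean was 11.22 with transgenic and 11.64 with wild-type flora, the smooth muscle mean 9.91 and 10.55, and the within-array SD 1.83 and 1.96. With the epithelial covariate Hadha was at 0.11 and Acaa2 at -0.10, with within-array SD as a covariate Hadha was at -0.14 and Acadvl at -0.61, and none was called. The part of these measures in the difference was not tested.

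**Figure D4:**
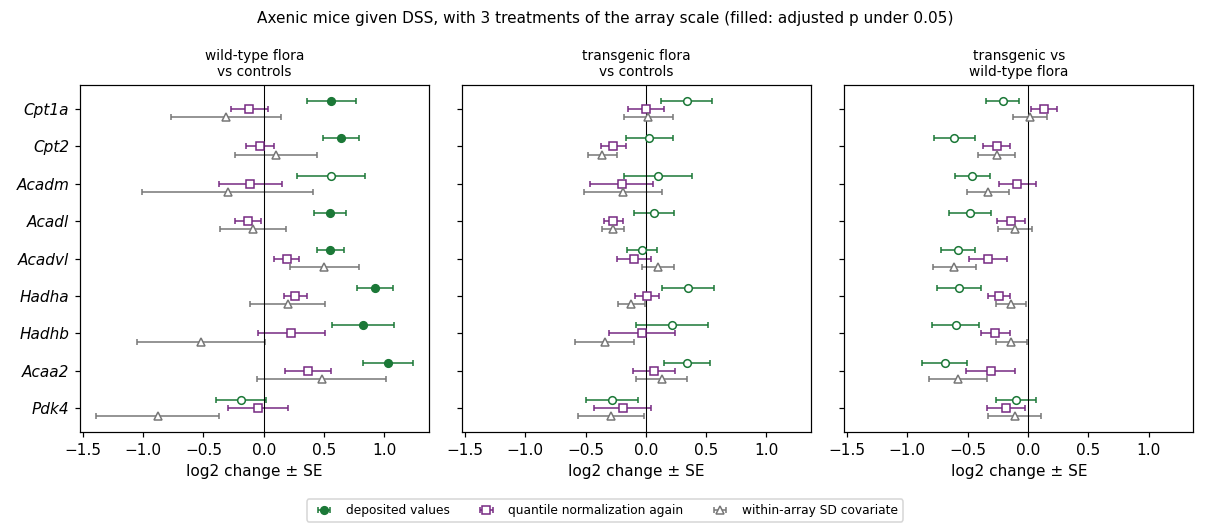
Log2 change with its SE (horizontal axes, limma, 5 mice per group) of the 9 genes in 3 comparisons of axenic mice, from the deposited values (circles), after quantile normalization again (squares) and with within-array SD as a covariate (triangles); filled points had an adjusted p under 0.05. The 7 filled circles for wild-type flora against controls have no filled square or triangle beside them, and Cpt1a, Acadm and Acadl change sign under both.

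Pathway lists in the axenic mice followed the same contrast. With wild-type flora against controls, 11 of 17 other mitochondrial beta-oxidation genes were called higher and 0 lower, with Echs1 (1.26), Acads (1.22) and Etfb (1.09) among the first. Of 13 peroxisomal genes 9 were higher, led by the carnitine octanoyltransferase Crot (1.24), and 2 were lower. Of the pyruvate dehydrogenase list 7 of 11 were higher, among them the kinases Pdk3 (1.80) and Pdk1 (1.16). The 17 regulators had 9 higher, including Pparg (0.93) and Ppard (0.76), and 2 lower. Of 14 PPAR targets 3 were higher and 7 lower, with Cyp4a14 at -0.76. Butyrate uptake had 5 higher and 2 lower of 10, fatty acid uptake 4 and 2 of 10, and ketone body genes 3 and 1 of 6, led by Bdh1 (0.93), which makes beta-hydroxybutyrate. These counts stand beside 67.3% of all genes called, 32.1% as higher and 35.2% as lower, and carry the same link to array scale. The lists had 0 calls by limma in the remaining axenic comparisons and in both genotype comparisons. At an unadjusted p under 0.05 (limma) they held at most 12 genes per list, reached by the 17 other mitochondrial genes with transgenic against wild-type flora. In that comparison 6856 of all 19908 genes had such a p. For genotype with DSS, 6 of the 10 genes listed for butyrate uptake and activation had such a p, against 1030 of all 19908 genes. That list was chosen with earlier results of these data known, so its counts describe it and do not test it. The posterior Hox means of these groups did not overlap either, at 6.76 to 6.93 in transgenic and 6.27 to 6.64 in wild-type mice. Their part in the values of the list was not tested. Of the 10, 5 had groups that did not overlap, against 1.57% of all genes. These 5 were higher in transgenic mice: the carrier Slc16a1 by 0.72 (SE 0.19, adjusted p = 0.383, limma), Slc5a8 by 1.09 (adjusted p = 0.397), Acsm3 by 1.31 (adjusted p = 0.459), Acss1 by 0.67 (adjusted p = 0.722) and Bsg by 0.16 (adjusted p = 0.941), none past the threshold.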

How the data were processed

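Total RNA (200 ng) from colon was hybridised to Affymetrix Mouse Gene 1.0 ST arrays, 1 array for each of 35 mice, per the labels' protocols. The deposited values are log2 signals per probe set, made by the authors with RMA in Affymetrix Expression Console 1.1, per the submitters' processing notes; those sources do not give the genome build. All 28090 probe sets lay between 3.78 and 14.4, array medians between 6.65 and 6.95. Gene names came from the platform annotation: 21639 probe sets had 1 symbol, 1539 several and 4912 none listed. The probe set with the highest mean stood for each of 990 genes with several, leaving 19908 genes. RMA includes quantile normalization, though not as its last step. Array SD differed (1.64 to 2.03), and that spread was tried as a covariate.

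Groups were compared with limma 3.58.1 in R 4.3.3 on the mice of each comparison (the interaction used 4 groups), with Benjamini-Hochberg adjustment over all 19908 genes and a threshold of 0.05. The fit was tested on simulated data. There was no low-signal filter in the analysis reported first. Precision rests on 5 mice per group, and arrays give no read depth. Summaries used numpy 2.4.6 and pandas 2.3.3, figures matplotlib 3.10.9. Alternatives were another quantile normalization, a filter at the 40th percentile of signal, 1 model for all arrays, array weights, a robust trended variance, the mean of probe sets, marker or spread covariates, and leaving out each mouse.

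The members and all lists were chosen with earlier results of these data known. All 9 members were described in every comparison. From each other list the counts are given, with named genes drawn from up to 4 called genes with the smallest p, or the 2 smallest where none was called. The genes of the butyrate list named for genotype with DSS, and Slc5a8 in wild-type mice, were named after their values were seen. Genes most like a member are the 5 with the highest r over 35 arrays. Of the 107 genes of the other lists, 9 are not reported here.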

Additional observations from a re-analysis of the deposited data

Results flagged for a closer look

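In 3 of the 63 sets of 5 mice (9 genes in 7 groups), 1 mouse lay far from the other 4 by Dixon's test; chance marks about 5% of such sets. Cpt1a was 9.09 in DSS wild-type mouse 55, with the next mouse at 10.17. Cpt1a was 10 in mouse WT639 of the axenic mice with wild-type flora, with the next at 10.38. Pdk4 was 6.61 in DSS transgenic mouse 47, the highest of its group, with the next at 6.23.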

How the results depend on the processing

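The counts of members called changed by more than 1.5 times under these alternatives. For DSS in wild-type mice (2 called) there were 5 with array weights (5843 of all genes called, against 1022) and with the within-array SD covariate (3573), 4 with the epithelial marker covariate (1933), and 0 with the smooth muscle (359) or posterior Hox covariate (9). For DSS in transgenic mice (2) there were 5 after another quantile normalization (1123 of all genes, against 905), 1, Pdk4, in the model of all 35 arrays (600) and 0 with the epithelial marker covariate (0). For genotype with DSS (0) there was 1 with array weights (339 genes, against 1). For transgenic against wild-type flora (0) there were 3 in the model of all 35 arrays (1927 genes, against 0) and 7 with array weights (4886). For wild-type flora against controls (7) there were 0 after another quantile normalization (6637 genes, against 13401), 0 with the within-array SD covariate (1) and 1 with the epithelial marker covariate (398). For transgenic flora against controls (0) there were 6 with the smooth muscle covariate (7575 genes, against 67). Leaving out 1 mouse gave 0 to 1 for DSS in wild-type mice, 0 to 7 for transgenic against wild-type flora and 0 to 1 for transgenic flora against controls. The cause was not tested.

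The following log2 changes took the other sign. For genotype without DSS with array weights, Acadm was 0.03, Acadvl 0.06 and Acaa2 0.13. For genotype with DSS with array weights, Acadl was -0.14. For transgenic flora against controls with array weights, Acadm was -0.15. For the interaction with array weights, Hadha was -0.08 and Hadhb -0.08. For DSS in transgenic mice with the epithelial marker covariate, Cpt2 was -0.11 and Acadl -0.15. For genotype with DSS with the epithelial marker covariate, Cpt2 was -0.01, Acadl -0.24, Hadha -0.01 and Hadhb -0.12. For transgenic against wild-type flora with the epithelial marker covariate, Cpt1a was 0.14, Cpt2 0.02, Acadl 0.17, Hadha 0.11 and Hadhb 0.13. For wild-type flora against controls with the epithelial marker covariate, Cpt1a was -0.40, Cpt2 -0.19, Acadm -1.16, Acadl -0.11, Hadhb -0.64 and Acaa2 -0.16. For transgenic flora against controls with the epithelial marker covariate, Cpt1a was -0.11, Cpt2 -0.40, Acadm -0.54, Acadl -0.27, Hadha -0.15, Hadhb -0.53 and Acaa2 -0.04. For the interaction with the epithelial marker covariate, Hadha was -0.11 and Hadhb -0.19. For DSS in wild-type mice with the posterior Hox covariate, Cpt1a was 0.05, Cpt2 0.41, Hadha 0.50 and Hadhb 0.77. For genotype without DSS with the posterior Hox covariate, Cpt2 was 0.08, Acadm 0.06, Acaa2 0.08 and Pdk4 0.26. For genotype with DSS with the posterior Hox covariate, Cpt2 was -0.22, Acadl -0.65, Hadha -0.18, Hadhb -0.30 and Pdk4 0.27. For the interaction with the posterior Hox covariate, Cpt1a was -0.04, Cpt2 -0.00, Acadvl 0.19, Hadha -0.36, Hadhb -0.51 and Pdk4 -0.56. For DSS in transgenic mice with another quantile normalization, Cpt2 was -0.15. For genotype without DSS with another quantile normalization, Cpt2 was 0.07, Acadvl 0.04 and Acaa2 0.05. For transgenic against wild-type flora with another quantile normalization, Cpt1a was 0.13. For wild-type flora against controls with another quantile normalization, Cpt1a was -0.12, Cpt2 -0.03, Acadm -0.11 and Acadl -0.13. For transgenic flora against controls with another quantile normalization, Cpt2 was -0.27, Acadm -0.20, Acadl -0.27 and Hadhb -0.03. For the interaction with another quantile normalization, Hadha was -0.13, Hadhb -0.05 and Pdk4 -0.01. For DSS in transgenic mice with the smooth muscle covariate, Cpt2 was -0.01. For genotype without DSS with the smooth muscle covariate, Acadvl was 0.02. For the interaction with the smooth muscle covariate, Acadvl was 0.02 and Pdk4 -0.08. For DSS in transgenic mice with the within-array SD covariate, Cpt2 was -0.12 and Acadl -0.16. For genotype without DSS with the within-array SD covariate, Cpt2 was 0.09, Acadm 0.01 and Acaa2 0.06. For genotype with DSS with the within-array SD covariate, Acadl was -0.01. For transgenic against wild-type flora with the within-array SD covariate, Cpt1a was 0.02. For wild-type flora against controls with the within-array SD covariate, Cpt1a was -0.31, Acadm -0.30, Acadl -0.09 and Hadhb -0.52. For transgenic flora against controls with the within-array SD covariate, Cpt2 was -0.36, Acadm -0.19, Acadl -0.27, Acadvl 0.10, Hadha -0.12 and Hadhb -0.34. For the interaction with the within-array SD covariate, Hadha was -0.13, Hadhb -0.20 and Pdk4 -0.01. No sign changed in the model of all 35 arrays, with the signal filter, with the trended robust variance, with the mean of probe sets or with the other Hadhb probe set. The epithelial covariate and the other Hadhb probe set were chosen after seeing the data.

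Leaving out 1 mouse at a time also turned signs of members that were not called. In DSS in transgenic mice the values ran -0.04 to 0.12 for Cpt2. In genotype without DSS the values ran -0.01 to 0.23 for Cpt1a, -0.13 to 0.02 for Acadvl, -0.09 to 0.07 for Acaa2, -0.12 to 0.07 for Cpt2 and -0.48 to 0.17 for Pdk4. In genotype with DSS the values ran -0.09 to 0.26 for Acadl, -0.02 to 0.43 for Hadhb and -0.15 to 0.04 for Acadvl. In transgenic against wild-type flora the values ran -0.20 to 0.01 for Pdk4. In transgenic flora against controls the values ran -0.07 to 0.17 for Cpt2, -0.02 to 0.21 for Acadl, -0.10 to 0.06 for Acadvl, -0.15 to 0.27 for Acadm and -0.05 to 0.38 for Hadhb. In the interaction the values ran -0.09 to 0.09 for Acadvl, -0.30 to 0.35 for Pdk4, -0.11 to 0.18 for Hadha and -0.20 to 0.27 for Hadhb. The number of mice, 5 per group, and the scale of the arrays limit these comparisons. No paired analysis was possible because the groups share no replicate numbers.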

Other observations

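The difference between Acadl and Acadm within an array was noticed after the values were seen and has no test. Acadl minus Acadm, on the log2 scale, was -0.79 ± 0.19 (SD, n = 5) in untreated wild-type mice and -0.39 ± 0.13 in untreated transgenic mice, and the transgenic mice reached from -0.53 to -0.20 where the wild-type mice reached from -1.06 to -0.60. With DSS it was 0.15 ± 0.44 and -0.07 ± 0.44 in the same genotypes. Among axenic mice it was 0.41 ± 0.54 in the controls, 0.41 ± 0.17 after wild-type flora and 0.39 ± 0.32 after transgenic flora. A difference between probe sets shows unequal change and no ratio of transcripts.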
